A study of Mus musculus with 10 samples.

Results

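S100P and 7 S100A genes (S100A4, S100A6, S100A10, S100A11, S100A13, S100A14 and S100A16) were followed across 10 human prostate tumour xenografts. They are 8 of the 21 S100 family genes, and 8 of the 58735 genes, in the count table, and were found by gene symbol. They were chosen when the contrast between the IL-15 and the control group was already known, so their differences between those groups are given as a description, without a p-value. LNCaP, a prostate cancer cell line and the single tumour line of the study, was injected under the skin (3000000 cells in medium with 50% Matrigel) of NSG mice, whose genotype the labels spell NOD.Cg-Prkdcscid Il2rgtm1Wjl/SzJ. These mice lack T, B and NK cells of their own. In both groups the mice were then given sipuleucel-T (sip-T), a human blood cell product, into the peritoneum 4 times at weekly intervals (5000000 cells in 100 µl each), and tumours were collected 7 days after the final dose. The 5 control tumours had control sip-T, and the series text describes sham dosing of control mice with vehicle. The 5 IL-15 tumours had sip-T and 1 µg of recombinant IL-15, a human growth factor for T and NK cells, and the labels do not separate treatment of the cells from injection of the mice. The labels give the mice no age, and do not say how many donors gave the sip-T cells or that each library came from its own mouse, so the spread is that between libraries.

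S100 proteins are small calcium sensors that work mostly as dimers. Calcium binding to their EF-hand loops opens a surface that grips target proteins such as annexins, myosin and cytoskeletal linkers, and some members are also released from cells and bind the receptor RAGE. S100A10 is the exception that does not respond to calcium and sits bound to annexin A2. S100P, first isolated from placenta, binds ezrin and RAGE and is known from many carcinomas, prostate cancer among them. S100A4 binds non-muscle myosin, S100A6 (calcyclin) binds the protein encoded by CACYBP, and S100A11 binds annexin A1. S100A13 takes part in the release of the growth factor encoded by FGF1, and S100A14 is mainly known from epithelia.

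S100P lies on chromosome 4 (6693069 to 6697170 on hg38, plus strand), while the other 7 members lie on the minus strand of chromosome 1 within 1648 kb. On chromosome 1 there are 2 blocks. S100A10 (151982915 to 151994390) and S100A11 (152032506 to 152047907) are neighbours, and 1487 kb further on come S100A6 (153534599 to 153536244), S100A4 (153543613 to 153550136), S100A16 (153606886 to 153613145), S100A14 (153614255 to 153616986) and S100A13 (153618787 to 153631360). S100A16 and S100A14 are 1.11 kb apart, and S100A14 and S100A13 1.80 kb. S100A13 shares 3435 bases with S100A1 on the opposite strand, and since the sources used here do not state whether reads were counted by strand, reads of these genes cannot be told apart where they overlap. S100A4 contains S100A3, which had at most 3 counts in a library. RefSeq's mouse annotation (GRCm38.p6) has a protein-coding gene of the same name for each of the 7 S100A members, whereas S100P appears there only as a synonym of a pseudogene (Gm40318). The sources used here do not give whether mouse reads were removed.

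Libraries held 13560224 to 19324056 counts, so that 3 counts corresponded to 0.155 to 0.221 CPM (counts scaled to the library total), for counting error only. The CPM values of genes and gene sums also carry the TMM scaling between libraries. KLK3, which encodes prostate-specific antigen and marks the LNCaP cells, measured 3330 to 6043 CPM in control and 3848 to 7450 CPM in IL-15 tumours. Summed T cell genes (15 genes) had a median of 6.47 CPM (range 4.77 to 22.4) in control and 29.4 CPM (6.06 to 52.1) in IL-15 tumours. Cytotoxic lymphocyte genes (14 genes) had 5.08 CPM (1.51 to 17.7) and 21.2 CPM (4.52 to 42.7). Monocyte and neutrophil genes had 3.52 to 6.64 CPM in control and 3.82 to 6.11 CPM in IL-15 tumours, with MNDA, FCGR3B and S100A12 at 0 counts in every library.

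The members spanned about 3 orders of magnitude in level, and S100A11 made up most of the family's reads. The deposited FPKM values, which are scaled to gene length, put S100A11 at 246 ± 63.0 FPKM (SD, n = 10), above 99.5% of the 16913 genes abundant enough to be tested. S100P followed at 7.62 ± 6.30 FPKM and S100A13 at 6.91 ± 1.47 FPKM. S100A4 had 2.42 ± 1.30, S100A14 1.65 ± 1.27, S100A16 0.647 ± 0.414, S100A6 0.395 ± 0.398 and S100A10 0.208 ± 0.165 FPKM. S100A10 was thus the lowest member, above 3.30% of the tested genes by this mean. S100A11 supplied 85.7% to 89.5% of all S100 family counts in control libraries and 69.1% to 85.8% in IL-15 libraries.

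**Figure D1:**
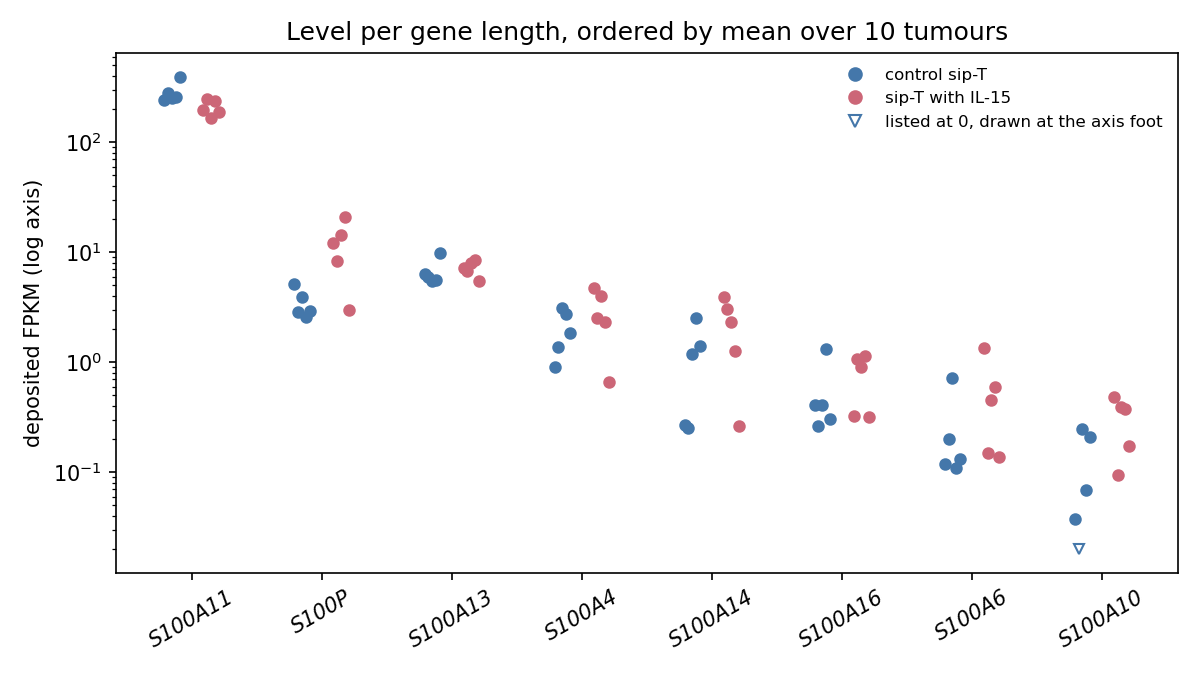
Deposited FPKM of each member in 10 tumours on a log axis, ordered by mean, with control tumours in blue and IL-15 tumours in red. S100A11 stands above all others in every tumour, S100P exchanges places with S100A13 between the groups, and the single open triangle is S100A10 in control tumour 2, listed at 0.

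The place of S100P in this order depended on the group. S100A11 was above S100P, and S100A13 above S100A4, in 10 of 10 libraries. S100P was below S100A13 in all 5 control libraries and above it in 4 of 5 IL-15 libraries, and without IL-15 tumour 4 the mean over libraries puts S100A13 second. S100A4 was above S100A14 in 9 of 10 libraries and S100A14 above S100A16 in 7. S100A16 was above S100A6, and S100A6 above S100A10, in 8 of 10. Over all 10 libraries the spreads of S100P and S100A13 overlapped. So did those of S100A4 and S100A14, of S100A14 and S100A16, of S100A16 and S100A6, and of S100A6 and S100A10. Overlap does not settle the order, since both genes of a pair were read in the same libraries, and the order was not tested. Within the control group S100P (2.59 to 5.11 FPKM) and S100A13 (5.50 to 9.87 FPKM) did not overlap.

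S100P had a higher mean in IL-15 tumours, with 4 of the 5 above every control tumour. It measured 7.30, 4.03, 5.47, 3.61 and 4.15 CPM in control tumours 1 to 5, from 57 to 114 counts. In IL-15 tumours 1 to 5 it measured 17.3, 11.8, 20.7, 29.96 and 4.19 CPM. IL-15 tumour 5, with 57 counts, lay inside the control range, so the groups overlapped. Means were 4.91 ± 1.51 and 16.8 ± 9.65 CPM (SD, n = 5 each), and the edgeR fit over all genes gave a log2 fold change of 1.77 ± 0.42 (SE), which is 3.41-fold. Of all tested genes, 2.71% had at least 4 of 5 IL-15 libraries above every control library. In bulk tumour RNA, more cells with a transcript and more transcript per cell cannot be told apart.

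**Figure D2:**
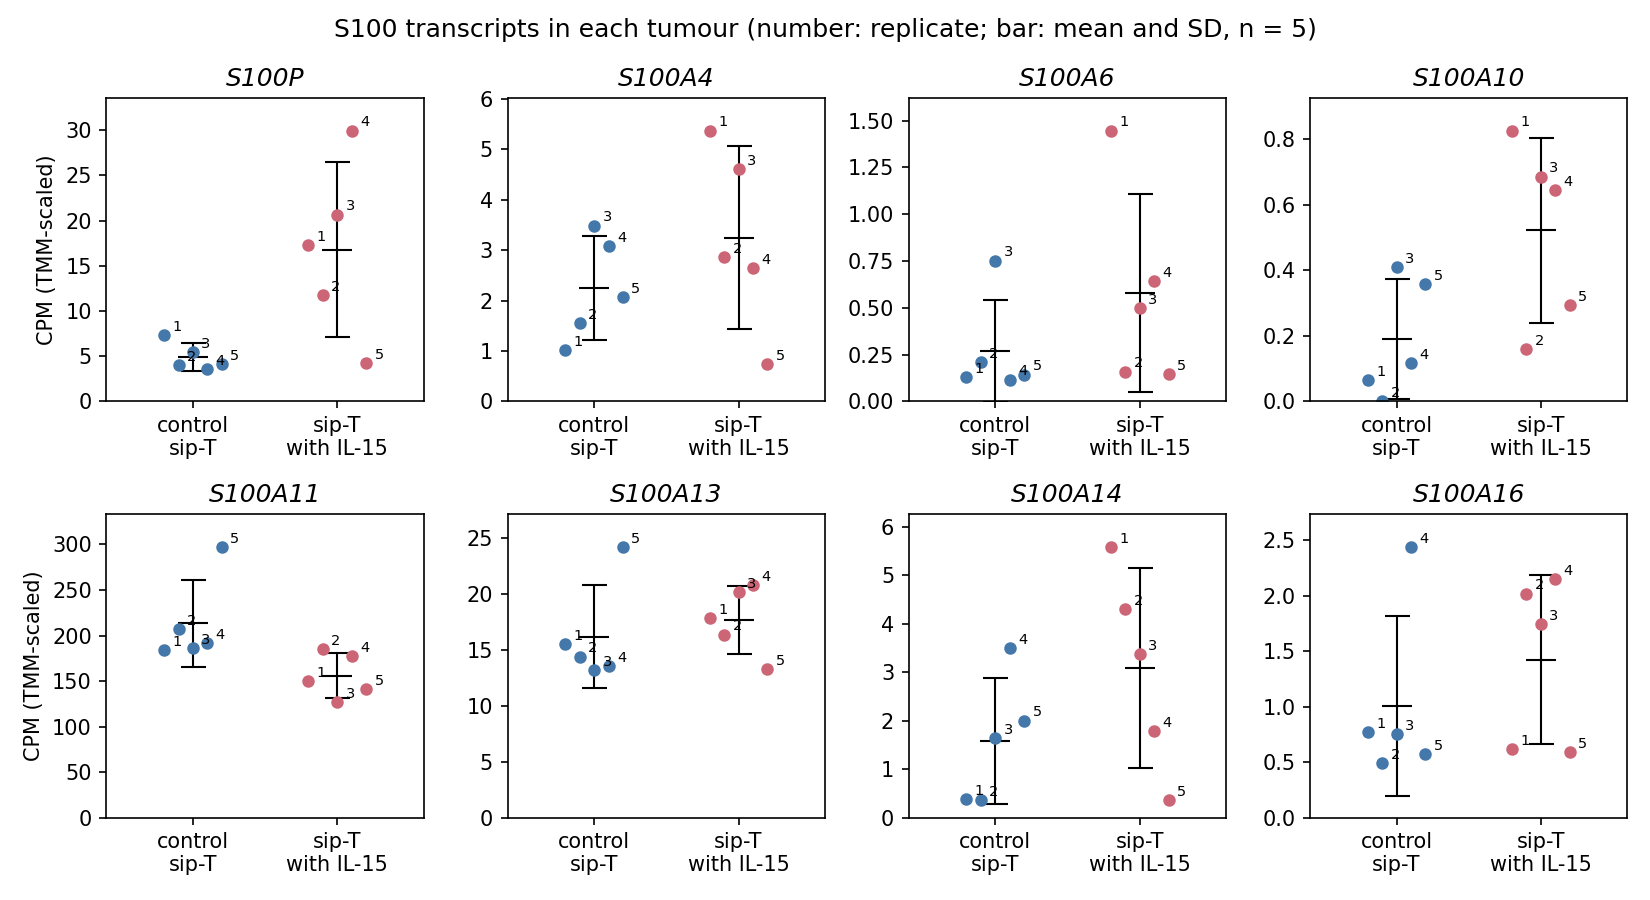
TMM-scaled CPM of the 8 members in each tumour (points, numbered by replicate) with the group mean and SD (bars, n = 5), each panel on its own axis from 0. S100P is above 11 CPM in IL-15 tumours 1 to 4 and under 7.4 CPM in the other 6 tumours, S100A11 is lower in most IL-15 tumours, and the groups overlap for every member.

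S100P and the T cell transcripts were both highest in IL-15 tumours 1, 3 and 4, but did not go together in every tumour. IL-15 tumour 2 had 11.8 CPM of S100P with a T cell sum of 6.06 CPM, inside the control range of that sum. Control tumour 3 had the reverse, 5.47 CPM of S100P with a T cell sum of 22.4 CPM. In IL-15 tumours 1, 3 and 4 S100P measured 17.3, 20.7 and 29.96 CPM, with T cell sums of 52.1, 31.4 and 29.4 CPM. The part of lymphocyte RNA in the difference was not tested.

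The genes around S100P did not share its fold change. Within 200 kb of it, 7 protein-coding genes were in the table and all 7 were tested, with values from -0.48 (PPP2R2C) to 0.24 (MRFAP1L1) and a median of 0.00, 4 above and 3 below 0. MRFAP1 was at 0.03 ± 0.13, and KIAA0232 at 0.00 ± 0.19. None passed edgeR. Around the S100A members, 16 of 28 protein-coding genes were tested, 10 with a log2 fold change above 0 and 6 below (median 0.08), and none past edgeR.

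**Figure D3:**
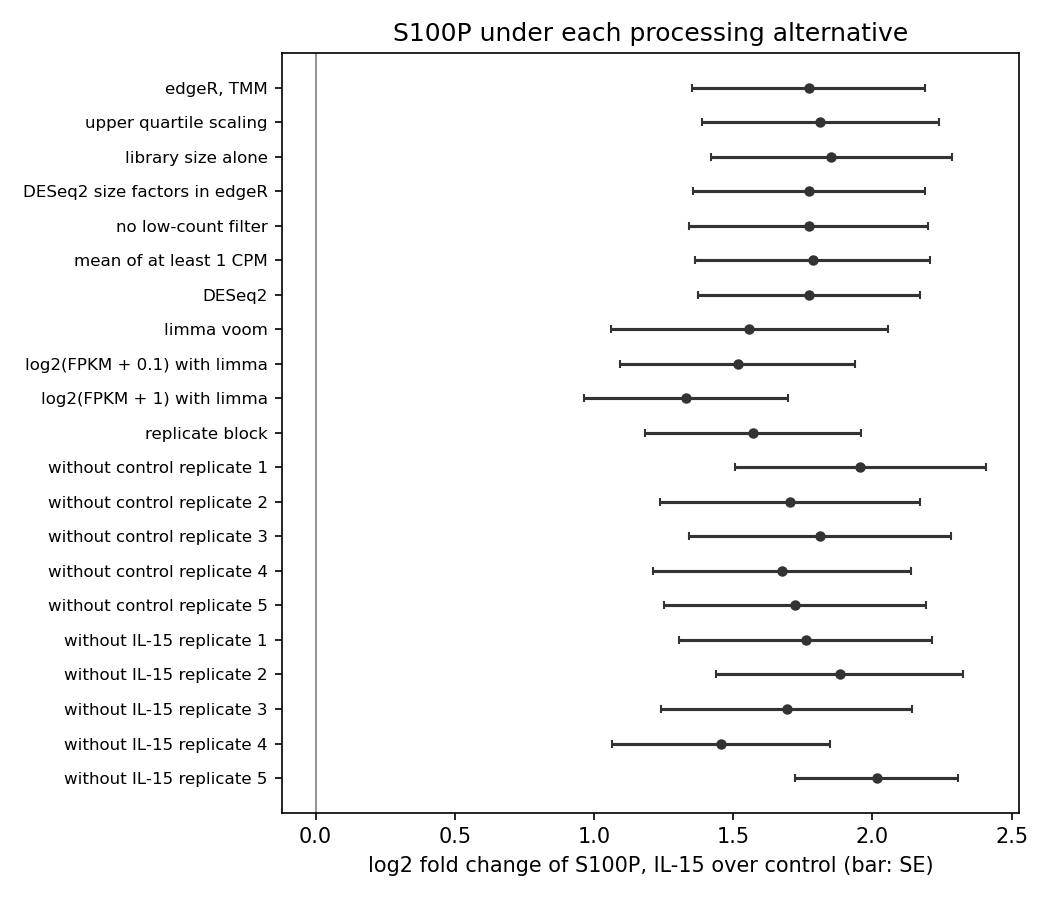
Log2 fold change of S100P (points) with its standard error (bars) for the main edgeR fit and 20 alternatives. Every value is above 0, from 1.33 on the log2(FPKM + 1) scale to 2.02 without IL-15 tumour 5.

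S100A11, the most abundant member, had the opposite sign. Control tumours 1 to 5 held 184, 207, 186, 192 and 298 CPM. IL-15 tumours 1 to 5 held 149.5, 185, 127, 178 and 141 CPM. Tumours 1, 3, 4 and 5 of the IL-15 group lay below every control tumour, a pattern met by 2.55% of all tested genes, and IL-15 tumour 2 (185.42 CPM) was just above the lowest control tumour (184.40 CPM). The log2 fold change was -0.45 ± 0.16 (SE). It was nearest to 0, at -0.30, without control tumour 5, the highest library.

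S100A13 had a log2 fold change of 0.13 ± 0.20. Control tumours 1 to 5 measured 15.6, 14.4, 13.2, 13.6 and 24.2 CPM, and IL-15 tumours 1 to 5 17.9, 16.4, 20.2, 20.8 and 13.3 CPM. All 5 IL-15 values lay inside the control range because of control tumour 5. That tumour was also highest for S100A1 on the opposite strand, with 85 counts against 25 to 55 in the other 9 libraries. Read sharing between both genes was not tested.

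S100A4 and S100A14 varied several-fold from tumour to tumour in both groups. S100A4 measured 1.02, 1.55, 3.49, 3.08 and 2.07 CPM in control tumours 1 to 5 and 5.38, 2.87, 4.62, 2.65 and 0.735 CPM in IL-15 tumours 1 to 5, a log2 fold change of 0.53 ± 0.46. S100A14 measured 0.384, 0.353, 1.64, 3.49 and 2.00 CPM in control tumours and 5.58, 4.31, 3.37, 1.79 and 0.368 CPM in IL-15 tumours, where the log2 fold change was 0.96 ± 0.69. For each gene IL-15 tumours 1 and 2 or 1 and 3 stood at the top and IL-15 tumour 5 at the bottom of its group, and the groups overlapped widely.

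S100A16 was low in most tumours and showed separate high libraries. It measured 0.768, 0.494, 0.753, 2.44 and 0.572 CPM in control tumours 1 to 5, and 0.620, 2.02, 1.75, 2.15 and 0.588 CPM in IL-15 tumours 1 to 5, from 7 to 42 counts. IL-15 tumours 2, 3 and 4 were high and tumours 1 and 5 were at the level of the lower control tumours. The log2 fold change was 0.49 ± 0.51, and 1.13 ± 0.47 without control tumour 4, the highest of all 10.

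S100A6 and S100A10 had too few counts to be tested. S100A6 had 2, 3, 11, 2 and 2 counts in control tumours 1 to 5 and 21, 3, 8, 9 and 2 counts in IL-15 tumours 1 to 5, totals of 20 and 43. S100A10 had 1, 0, 6, 2 and 5 counts against 12, 3, 11, 9 and 4, totals of 14 and 39. For both genes IL-15 tumour 1 was highest, followed in S100A10 by IL-15 tumours 3 and 4. The means were 0.270 ± 0.272 and 0.580 ± 0.531 CPM for S100A6, and 0.190 ± 0.183 and 0.522 ± 0.282 CPM for S100A10 (SD, n = 5 each), with overlapping groups.

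These scarce members were highest in the tumours with the most T cell transcripts. S100A6 had 8 or more counts in IL-15 tumours 1, 3 and 4 and control tumour 3, the same 4 tumours whose T cell sums were above 20 CPM. In the other 6 tumours the T cell sum was 4.77 to 8.97 CPM and S100A6 had 2 or 3 counts. S100A10 was likewise highest in these 4, at 0.411 to 0.827 CPM, against 0 to 0.357 CPM elsewhere. That margin was within counting error, with 6 counts in control tumour 3 and 5 in control tumour 5. ANXA2, which encodes the annexin that S100A10 binds and is known for low or absent expression in LNCaP cells, measured 4.41, 1.81, 2.80 and 1.44 CPM in IL-15 tumours 1, 3 and 4 and control tumour 3, and 0.448 to 1.06 CPM in the other 6. The share of all genes that split the tumours in this way was not counted. The tumours fell into separate clusters by T cell sum, so no correlation is given, and the part of lymphocyte RNA in these values was not tested.

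**Figure D4:**
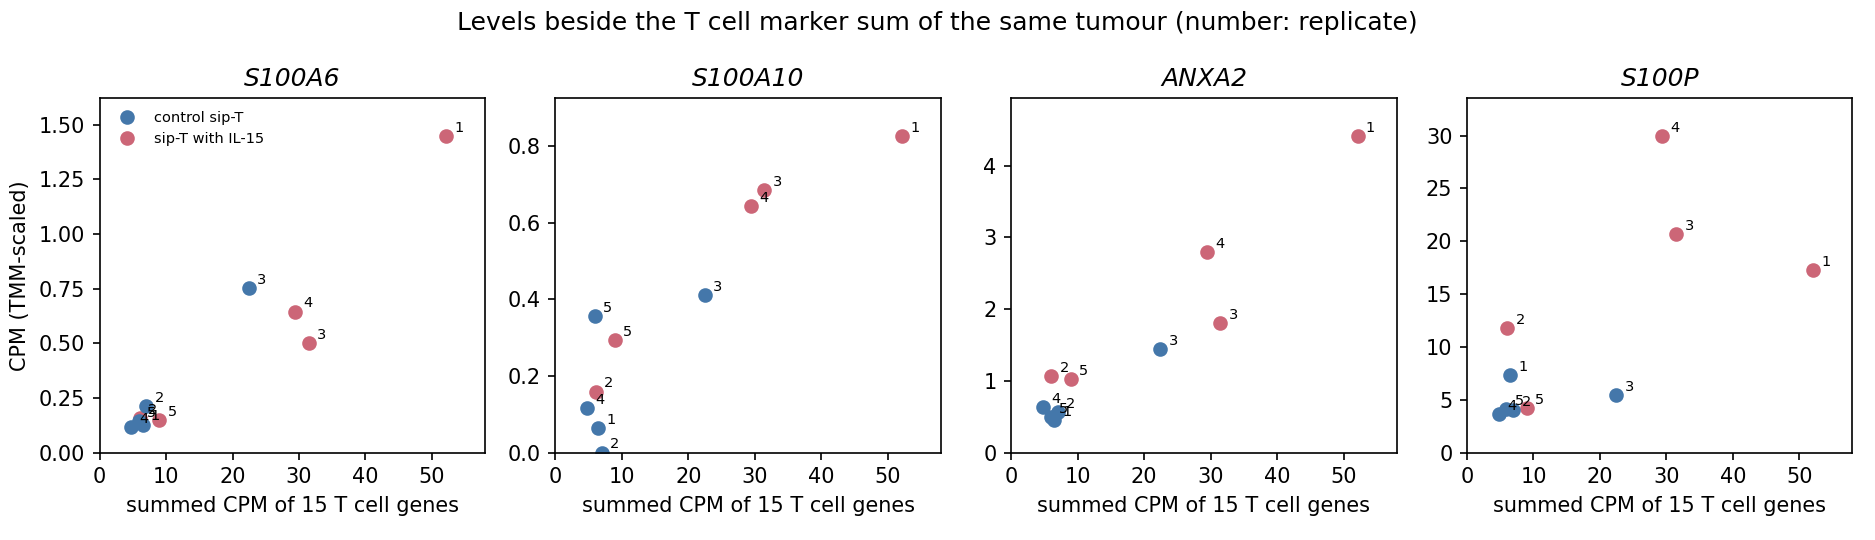
CPM of S100A6, S100A10, ANXA2 and S100P (vertical axes) against the summed CPM of 15 T cell genes in the same tumour (horizontal axes), control tumours in blue and IL-15 tumours in red, numbered by replicate. The 4 tumours above 20 CPM on the horizontal axis have the highest S100A6, S100A10 and ANXA2, for S100A10 by a margin within counting error. S100P is highest in IL-15 tumours 1, 3 and 4 of these, whereas control tumour 3 is low and IL-15 tumour 2 is high.

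Of the 8 members, 6 passed the low-count filter (S100P, S100A4, S100A11, S100A13, S100A14 and S100A16), and edgeR called 0 of them at an adjusted p of 0.05 over all genes, as it called 0% of the 16913 tested genes (smallest adjusted p 0.758). At an unadjusted p of 0.05 the fit counted 2 members, S100P and S100A11, beside 6.46% of all tested genes (3.03% with the IL-15 mean higher and 3.43% with it lower). DESeq2 called 1 member, S100P, beside 0.0415% of the genes it adjusted (0.0355% higher and 0.00592% lower). At an unadjusted p of 0.05 it counted the same 2 members, beside 7.38% of genes (3.54% higher and 3.84% lower). limma voom called 0 members, beside 0% of genes, and 2 members unadjusted, beside 6.23% (3.09% higher and 3.15% lower). No member had groups that did not overlap, against 0.349% of tested genes with every IL-15 library above every control library and 0.313% with every one below. Nothing is read from these counts, since the members were chosen on this contrast.

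S100A14 varied widely inside both groups, whereas the spread of S100P lay mostly in the IL-15 group and rested on 1 library. The SD of log2 CPM within groups was 0.81 for S100P, larger than in 91.5% of 3539 genes whose mean lay within 2-fold of its own, where the median SD was 0.35. It was 0.40 among control and 1.07 among IL-15 libraries. Without IL-15 tumour 5 the SD of S100P within groups was 0.47, larger than in 72.5% of the same genes. S100A14 had 1.35, larger than in 96.3% of genes of like abundance, with 1.29 among control and 1.40 among IL-15 libraries. The others above the middle were S100A4 with 0.88 (85.7%) and S100A16 with 0.82 (81.5%). These also leaned on single libraries. S100A4 had 0.60 (65.3%) without IL-15 tumour 5, and S100A16 had 0.65 (65.1%) without control tumour 4. S100A11 (0.26) and S100A13 (0.31) were near the middle, above 54.8% and 50.7%. IL-15 tumour 5 was the lowest of its group for 6 of the 8 members (S100P, S100A4, S100A6, S100A13, S100A14 and S100A16). For S100A6 it had 2 counts against 3 in IL-15 tumour 2, and for S100A16 8 against 9 in IL-15 tumour 1. The share of all genes lowest in this library was not counted, so nothing particular to the members is read from it. IL-15 tumour 5 was also the shallowest library. Its sum of fibroblast and mural genes was the lowest, 42.7 CPM against 60.1 to 176 CPM in the other 9. Without RGS5, the gene that dominates the highest library, the sum was 39.6 against 47.3 to 96.5 CPM. The listed genes contributed unevenly. COL1A1 had 2447 and 3365 counts in control and IL-15 tumours, whereas COL1A2 had 1 and 5 and DCN 13 and 14. How far the sum follows fibroblasts was not tested, nor was the part of these differences.

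Within groups, S100A4 and S100A14 went together most closely of the 15 pairs of tested members, without passing the threshold after adjustment. After subtraction of each group's mean log2 CPM, the pair had Pearson's r = 0.89 (two-sided exact permutation within groups, p = 0.00389, adjusted 0.0583) and Spearman's rho = 0.77 (exact permutation p = 0.0171, adjusted 0.256) over 10 libraries. All 10 libraries lay on the same side of the group mean for both genes. Without IL-15 tumour 5 and control tumour 1, the libraries farthest from the median of S100A4, r was 0.70. S100A4 and S100A14 lie 64.1 kb apart, whereas S100A14 and S100A16, the closest pair, had r = 0.49 (exact permutation p = 0.209, adjusted 0.644) and rho = 0.43 (p = 0.250, adjusted 0.816), and r = 0.12 without IL-15 tumour 5 and control tumour 2.

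S100P had no relation past the threshold with another tested member. Its highest r was with S100A4, at 0.53 (exact permutation p = 0.228, adjusted 0.644; rho = 0.19, p = 0.652, adjusted 0.816), and r was 0.00 without IL-15 tumours 4 and 5, the libraries farthest from its median. With S100A13 the values were r = 0.51 (exact permutation p = 0.0944, adjusted 0.472) and rho = 0.66 (p = 0.0496, adjusted 0.372), and r was 0.09 without the same 2 libraries. Without control tumour 5, r between S100P and S100A13 was 0.94, and without IL-15 tumour 5 it was 0.19. With S100A11, r was 0.01 (exact permutation p = 0.971, adjusted 0.997; rho = -0.21, p = 0.584, adjusted 0.816), and -0.59 without IL-15 tumours 4 and 5.

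**Figure D5:**
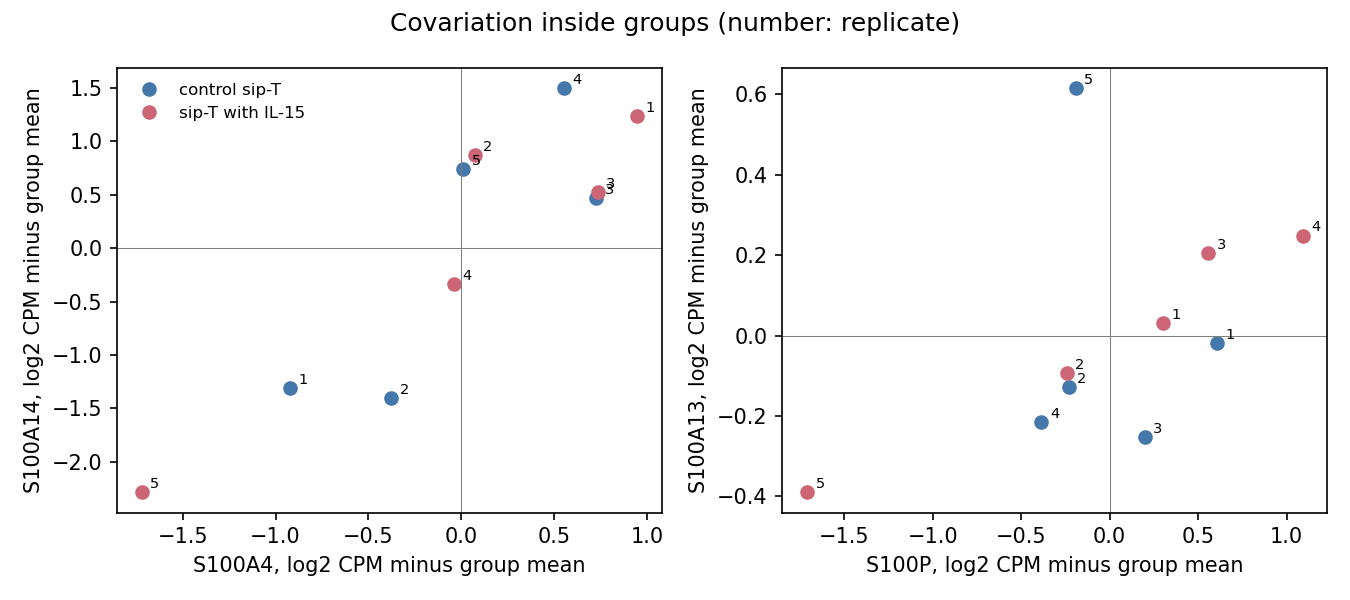
Log2 CPM minus the group mean for S100A4 against S100A14 (left) and S100P against S100A13 (right), 1 point per tumour, numbered by replicate, control in blue and IL-15 in red. On the left all 10 tumours lie in the lower left or upper right, and on the right control tumour 5 stands above and IL-15 tumour 5 to the lower left of the rest.

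The genes most like S100P within groups were sought outside the S100 family only. Pearson's r with S100P over the 10 group-centred libraries was taken for 12543 protein-coding genes of at least 1 CPM, with the S100A genes left out. The highest r were those of PRRG2 (0.94), the membrane transporter gene SLC4A11 (0.94), MZB1 (0.93), the G protein-coupled receptor kinase gene GRK5 (0.92) and NDRG2 (0.91). Without IL-15 tumours 4 and 5 these r were 0.85, 0.96, 0.63, 0.81 and 0.71. The lowest were those of the glycyl-tRNA synthetase gene GARS (-0.95), C9orf43 (-0.93) and the nuclear pore gene NUP205 (-0.92). They are extremes among many genes over few libraries, and are given as a description. Of these 8 genes none had a fold change near that of S100P, with log2 fold changes from -0.22 (PRRG2) to 0.58 (MZB1, 2.05 ± 0.708 against 3.06 ± 1.68 CPM).

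S100 proteins act through partners and receptors. Of 33 such genes in the table, 26 were tested, 10 with a log2 fold change above 0 and 16 below, at a median of -0.05 beside -0.01 over all tested genes, and edgeR called none (3 at an unadjusted p under 0.05, where 6.46% of all tested genes lie). For S100P, the membrane-cytoskeleton linker gene EZR (ezrin) measured 149 ± 31.5 and 115 ± 30.02 CPM, the scaffold gene IQGAP1 58.2 ± 12.48 and 57.3 ± 7.96 CPM, and the RAGE gene AGER 5.08 ± 1.99 and 6.69 ± 2.53 CPM in control and IL-15 tumours. S100PBP, which encodes an S100P-binding protein, had 36.6 ± 2.30 and 37.9 ± 7.22 CPM. MYH9, the myosin heavy chain gene of the S100A4 partner, had 1009 ± 207 and 781 ± 50.5 CPM (log2 fold change -0.37 ± 0.15), and CACYBP 99.4 ± 7.40 and 94.4 ± 22.6 CPM.

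Among the annexin partners, the abundant ANXA11 had 220 ± 29.4 and 198 ± 7.34 CPM, whereas the scarce ANXA2 and ANXA1 had higher means in IL-15 tumours. ANXA2 had 0.718 ± 0.408 and 2.22 ± 1.42 CPM (log2 fold change 1.62 ± 0.48), and ANXA1, whose product binds S100A11, 2.86 ± 2.44 and 8.80 ± 4.82 CPM (log2 fold change 1.62 ± 0.60). For ANXA1 the highest tumours were IL-15 tumours 3 and 5, at 14.98 and 11.9 CPM, of which tumour 5 had a T cell sum of 8.97 CPM. AHNAK, a very large scaffold protein gene bound by S100A10 with annexin A2, had 342.5 ± 158 and 227 ± 70.2 CPM (log2 fold change -0.59 ± 0.32).

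Of the 13 other S100 family genes, S100A1 and S100A2 passed the low-count filter. S100A1, on the opposite strand to S100A13, had 2.96 ± 1.78 and 2.79 CPM as control and IL-15 means, with a log2 fold change of -0.09 ± 0.36. S100A2 measured 1.09, 0.848, 0.616, 1.57 and 1.29 CPM in control tumours 1 to 5 and 0.689, 0.372, 0.936, 0.645 and 0.294 CPM in IL-15 tumours 1 to 5 (log2 fold change -0.88 ± 0.39), with overlapping groups and no call by edgeR. Of the remaining family genes, S100A9 had 0 to 38 counts per library, 7 (S100A3, S100A5, S100A7, S100A8, S100B, S100G and S100Z) had 1 to 7 counts over all libraries, and 3 (S100A7A, S100A7L2 and S100A12) had none.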

How the data were processed

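Per the labels' protocols, RNA of 10 tumours was extracted with TRIzol and sequenced on Illumina instruments. Build hg38, GATK 4.1.1.0, DESeq2 1.20.0, featureCounts 1.5.0-p3, HISAT2 2.0.5 and fastp appear, with no role stated, in the submitters' processing notes. The deposited table holds raw counts per gene, per the file headers. The deposited FPKM values equal count over gene length and over a library total of 1.01 to 1.24 times the counts, which the sources used here do not explain. Genes were kept with filterByExpr (minimum count 10), scaled by TMM and tested with edgeR 4.0.16 (quasi-likelihood, robust, R 4.3.3) with Benjamini-Hochberg adjustment over 16913 genes, 5 against 5 libraries, and the script was tested on simulated data. DESeq2 1.42.0 and limma 3.58.1 ran on the same genes as alternatives, beside other scalings, filters, FPKM, a block for replicate numbers, and fits without each library. Correlations used group-centred log2 CPM (prior count 2) and all 14400 reassignments of libraries within groups, so that p can go no lower than 6.94e-05. Members, gene lists and rules were chosen with earlier results of these data known. Named genes were the members, the family genes of at least 0.1 CPM, 10 fixed partners and neighbours within 200 kb. The 5 genes most and 3 least like S100P, with family members excluded, were named too. The spread by group and without each library, and the sum of fibroblast and mural genes without RGS5, were added after seeing the data. Other family genes are listed by count, ANXA2 and ANXA1 were looked at by tumour after their values were seen, and so was the T cell sum beside S100A6 and S100A10.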

Additional observations from a re-analysis of the deposited data

Results flagged for a closer look

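In 4 of 16 sets of 5 values (8 members in 2 groups) the highest tumour stood far from the other 4, by Dixon's ratio of its gap to the whole range, a limit that about 5% of sets of independent normal values pass by chance. These sets are CPM values, some of few counts, and share libraries, so the number of such sets is not read against that share. All 4 were control tumours. Control tumour 5 had 298 CPM of S100A11, with the next at 207 CPM (ratio 0.797), and 24.2 CPM of S100A13, with the next at 15.6 CPM (ratio 0.786). Control tumour 4 had 2.44 CPM of S100A16 (next 0.768 CPM, ratio 0.859). Control tumour 3 had 0.753 CPM of S100A6 (next 0.212 CPM, ratio 0.850), which is 11 counts.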

How the results depend on the processing

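The log2 fold changes of the 6 tested members kept their sign in all 20 alternatives each. Over them S100P ranged from 1.33 to 2.02, S100A4 from 0.28 to 0.78, S100A11 from -0.51 to -0.30, S100A13 from 0.06 to 0.33, S100A14 from 0.54 to 1.49 and S100A16 from 0.19 to 1.13. Over all genes edgeR called 0, with each library left out in turn 0 to 0, without the low-count filter 1 and DESeq2 7, among them 1 member (S100P). With the replicate number as a block edgeR called 0 genes and 0 members. The labels do not say what a shared number marks. Same-numbered tumours had correlations of 0.26, 0.01, -0.17, -0.22 and -0.08 over genes. Of the 5 control tumours, 1 correlated best with its own number. These values cannot settle whether a number stands for a shared donor or day, since such sharing need not raise the correlation over all genes. With the block the S100P fold change was 1.57, and r between S100A4 and S100A14 was 0.93. The r of S100P was then 0.91 with S100A13, 0.80 with S100A11 and 0.21 with S100A4, against 0.51, 0.01 and 0.53 without the block. No permutation count of pairs was made with the block. The number of member pairs past the threshold was 0 in all 14 alternatives that gave a count, and r of S100A4 and S100A14 ranged from 0.79 to 0.91 with a library left out. The order by FPKM kept 8 of 8 places, except without IL-15 tumour 4, where 6 were kept. Members under 1 CPM rest on few counts. With 5 tumours a group small differences were not detectable, and edgeR did not call S100P at 3.41-fold either.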

Other observations

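Calcium sensors of the EF-hand superfamily outside the S100 family had more members below than above 0. Of 37 listed genes, such as those of calmodulin, calpains and calcineurin B, 27 were tested, 9 with a log2 fold change above 0 and 18 below, at a median of -0.09 beside -0.01 over all tested genes, of which 49.0% were above 0. edgeR called none of the 27 (5 at an unadjusted p under 0.05, where 6.46% of all tested genes lie).

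S100A9, whose product in myeloid cells pairs with that of S100A8, had 38 counts in control tumour 4 and 22 in IL-15 tumour 2, with 0 to 11 in the other 8 libraries. S100A8 had 1 count and S100A12 none over all 10 libraries. Control tumour 4 and IL-15 tumour 2 also had the highest and the third highest S100A16 of the 10 tumours (2.44 and 2.02 CPM). They also had the most RGS5, a gene of pericytes, at 123 and 78.7 CPM against 3.09 to 20.7 CPM in the other 8. Without RGS5 their sums of fibroblast and mural genes were 52.5 and 66.6 CPM, inside the range of the other 8 (39.6 to 96.5 CPM). These tumours were picked out after their values were seen, and no relation was tested.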
